A study of Mus musculus with 2 samples.

Results

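Blood group and red cell surface genes encode the membrane proteins that carry blood group antigens or stand beside them in the red cell membrane. The 9 genes described here are Gypc, Rhag, Rhd, Kel, Xk, Ermap, Icam4, Aqp1 and Cd47. They were taken by name from mouse gene symbols and make up 9 of 43346 gene rows. The values come from total RNA sequencing of megakaryocyte-erythroid progenitors (MEP), primary bone marrow cells that can form red cells and platelets. The cells came from male C57BL/6J mice 5 to 6 weeks old, and the labels name no treatment. There is 1 group of 2 libraries, biological replicates 1 and 2, made after ribosomal RNA had been removed, each from 100 ng. Their recorded size ranges are 200 to 1000 for replicate 1 and 215 to 1000 for replicate 2. They hold 39919858 and 48043009 expected counts. Both libraries carry the same donor entry, so SDs measure the spread between these libraries and may be technical. With 1 group there is no contrast between conditions, and no p-value was computed.

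In the mature red cell membrane, these proteins sit in groups around the anion exchanger band 3 and around the junctions of the spectrin skeleton. The Rh complex holds the Rh protein, the Rh-associated glycoprotein RhAG, the LW antigen ICAM-4 and CD47. Glycophorin C, Kell and XK belong to the junctional complex, where glycophorin C binds protein 4.1. The antigens appear at the surface at different steps of erythroid maturation.

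The promoters of 6 of the genes are printed here because the genes are compared below by whether they hold the letters AGATAA or TGATAA, a core bound by GATA factors. Each window runs from 250 bases before to 50 bases after the annotated start and is credited to RefSeq, build GRCm38.p6, the same assembly as mm10. Capitals mark the 6 letters on either strand, so TTATCT and TTATCA are matches on the opposite strand. The first 5 windows hold a match and that of Aqp1 is shown as one with none.
Icam4, chr9:21029182-21029481, plus strand: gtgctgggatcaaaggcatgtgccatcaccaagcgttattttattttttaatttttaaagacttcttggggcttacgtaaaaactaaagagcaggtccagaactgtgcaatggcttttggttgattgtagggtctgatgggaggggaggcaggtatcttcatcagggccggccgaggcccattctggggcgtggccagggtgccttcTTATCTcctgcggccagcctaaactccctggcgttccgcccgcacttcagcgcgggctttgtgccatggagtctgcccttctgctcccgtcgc
Kel, chr6:41704276-41704575, minus strand: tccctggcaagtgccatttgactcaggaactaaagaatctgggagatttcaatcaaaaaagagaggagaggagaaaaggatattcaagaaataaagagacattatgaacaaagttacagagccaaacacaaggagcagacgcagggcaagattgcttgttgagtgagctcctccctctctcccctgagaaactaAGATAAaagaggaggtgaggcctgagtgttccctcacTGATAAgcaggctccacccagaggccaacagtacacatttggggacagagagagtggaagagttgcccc
Rhd, chr4:134864286-134864585, plus strand: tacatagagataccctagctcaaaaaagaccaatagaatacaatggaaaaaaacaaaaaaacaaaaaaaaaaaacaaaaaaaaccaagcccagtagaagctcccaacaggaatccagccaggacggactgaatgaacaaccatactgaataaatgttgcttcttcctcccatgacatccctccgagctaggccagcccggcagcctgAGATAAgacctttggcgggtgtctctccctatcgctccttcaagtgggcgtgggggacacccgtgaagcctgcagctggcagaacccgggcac
Rhag, chr17:40810899-40811198, plus strand: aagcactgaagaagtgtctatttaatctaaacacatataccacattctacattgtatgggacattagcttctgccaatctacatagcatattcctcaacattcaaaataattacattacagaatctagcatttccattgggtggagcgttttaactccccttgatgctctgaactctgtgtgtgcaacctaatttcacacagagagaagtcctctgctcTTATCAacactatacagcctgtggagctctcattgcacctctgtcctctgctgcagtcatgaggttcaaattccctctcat
Ermap, chr4:119189946-119190245, minus strand: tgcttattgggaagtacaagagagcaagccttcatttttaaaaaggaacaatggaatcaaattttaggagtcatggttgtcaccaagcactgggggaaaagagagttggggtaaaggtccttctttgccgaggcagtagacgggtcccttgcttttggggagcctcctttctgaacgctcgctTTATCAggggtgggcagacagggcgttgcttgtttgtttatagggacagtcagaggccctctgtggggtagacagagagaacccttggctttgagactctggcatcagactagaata
Aqp1, chr6:55336049-55336348, plus strand: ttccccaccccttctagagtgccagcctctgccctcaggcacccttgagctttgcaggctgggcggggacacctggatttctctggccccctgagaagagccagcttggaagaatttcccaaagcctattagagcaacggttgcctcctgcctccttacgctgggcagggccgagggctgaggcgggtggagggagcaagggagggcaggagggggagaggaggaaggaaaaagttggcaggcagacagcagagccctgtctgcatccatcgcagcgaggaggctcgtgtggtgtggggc

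A window was found for 8 of the 9 genes, and none for Gypc. Of these 8 genes, 5 held at least 1 match, against 18.6% of all 32851 windows of 300 bases. That share is per window, over genes of any level, and not per gene. Counts per gene are given below. Kel held 2 matches, whose first bases lay 56 and 19 bases before the start. Rhd and Icam4 had theirs 43 bases before the start, Rhag 31 and Ermap 67. These RefSeq starts can differ from the gene bounds given below, which are from GENCODE. By those bounds the Icam4 match lies inside the gene, which starts at 21029373. The Aqp1 window ends at 55336348, before the GENCODE start of Aqp1 at 55336432. The windows of Xk, Aqp1 and Cd47 held none. The letters CCNCNCCC, which resemble sites of Krüppel-like factors, were in the windows of 4 of the 8 genes (Rhd, Xk, Icam4 and Aqp1), against 49.5% of all windows. In Xk most of these matches overlap each other in a run of G, and no such match overlapped a GATA match. A match describes letters and not a bound site, and binding was not measured here.

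All 9 genes were transcribed in both libraries. Each reached 1 TPM (transcripts scaled for gene length and to a fixed total) in both, against 39.4% of nuclear protein-coding genes. Their median was 17.0 TPM in replicate 1 and 28.3 TPM in replicate 2, which in both is the level of Kel. The coding transcript Kel-201 alone had 15.0 and 17.1. Over all 21461 nuclear protein-coding genes the medians were 0.19 and 0.14, and over the 9033 of these genes that averaged 1 TPM or more they were 8.04 and 6.53. Together the 9 genes took 0.161% and 0.192% of expected counts.

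Aqp1, the gene of the water channel aquaporin-1 that carries the Colton antigens in humans, was the highest of the 9. Replicate 1 gave 109 TPM and replicate 2 gave 94.2 TPM, a mean of 102 ± 10.7 (SD, n = 2), from 24003 and 30400 expected counts. It lay above 96.4% and 96.6% of the 9033 genes. Aqp1 (ENSMUSG00000004655.5, mm10 chromosome 6, 55336432 to 55348555) has 1 annotated transcript of 4 exons, so no choice between transcripts enters its level. Among 11 other aquaporin genes, Aqp9 had 22.7 and 13.5 TPM and Aqp11 had 1.76 and 2.44, while 6 had 0 counts in both libraries.

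Ermap, which encodes the butyrophilin-like protein that carries the Scianna antigens in humans, followed at 58.7 TPM in replicate 1 and 62.8 TPM in replicate 2 (60.8 ± 2.92, SD, n = 2). Its libraries differed by less than the gap to Aqp1 above or to Rhd below. Of 9 listed butyrophilin relatives, Btnl10 reached 3.07 and 4.05, and 7 had 0 counts in both. Ermap (ENSMUSG00000028644.12) lies on chromosome 4, 119175457 to 119190011, on the minus strand.

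The 2 Rh family genes of the set kept nearly the same ratio in both libraries. Rhd, the mouse gene of the Rh blood group protein, had 31.8 TPM in replicate 1 and 39.9 TPM in replicate 2 (35.8 ± 5.73, SD, n = 2). Rhag, whose protein is needed for Rh proteins to reach the membrane, had 14.45 and 17.2 (15.8 ± 1.94). Rhd exceeded Rhag 2.20-fold and 2.32-fold, a log2 ratio of 1.18 ± 0.054 (SD, n = 2). Rhd (ENSMUSG00000028825.7) lies on chromosome 4, 134864536 to 134896172, and Rhag (ENSMUSG00000023926.7) on chromosome 17, 40811126 to 40840754. Their relatives Rhbg and Rhcg, known from kidney and other epithelia, had 0 counts in both libraries.

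Cd47 and Icam4 encode the other Rh complex proteins of the set. Cd47, found on most cell types and known as a signal that restrains phagocytosis, had 36.2 TPM in replicate 1 and 33.7 TPM in replicate 2 (35.0 ± 1.77, SD, n = 2). Its order with Rhd was opposite in the libraries, so these levels were not separated. Sirpa, the gene of the receptor that CD47 engages on phagocytes, was at 0.72 and 0.11. Icam4, which encodes an adhesion protein of erythroid cells that binds integrins, had 4.04 and 8.71 (6.38 ± 3.30, SD, n = 2), from 252 and 798 counts. It was the gene of the 9 with the largest SD relative to its mean. Icam4 (ENSMUSG00000001014.5) lies on chromosome 9, 21029373 to 21030595, and Cd47 (ENSMUSG00000055447.14) on chromosome 16, 49800533 to 49915010. Of its relatives, Icam2 was at 22.0 and 11.1, with Icam1 and Icam5 under a TPM of 1 in both. Of the integrin genes listed as partners, Itga4 had 62.7 and 38.3 and Itgb1 had 48.2 and 35.4. Itga2b, also a megakaryocyte gene, had 19.6 and 5.70, and Itgb2 had 3.79 and 2.86. Itgav had 2.77 and 9.06 in TPM from 688 and 734 counts, and its difference, -1.69 in centred log2 TPM, was 0.11 with TMM-scaled counts.

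Kel and Xk encode proteins that are joined by a disulfide bond in the red cell membrane. Kel, the gene of a zinc endopeptidase that in humans cleaves big endothelins, had 17.0 TPM in replicate 1 and 28.3 TPM in replicate 2 (22.7 ± 7.96, SD, n = 2). Xk, whose human counterpart is lost in McLeod syndrome, had 4.97 and 4.63 (4.80 ± 0.24), the lowest mean of the 9. Kel exceeded Xk 3.43-fold in replicate 1 and 6.11-fold in replicate 2. With the full-length coding transcript Kel-201 in place of the gene, the excess was 3.01-fold and 3.69-fold. Among the relatives of Kel, Ece2 was at 1.45 and 1.41, and no relative of Xk reached a TPM of 1 in either library. Vps13a, which encodes a lipid transfer protein that binds XK, had 11.97 and 8.59. The Kell substrate gene Edn3 had 19 counts in replicate 1 and 0 in replicate 2. Kel (ENSMUSG00000029866.9) lies on chromosome 6, 41686330 to 41704339, and Xk (ENSMUSG00000015342.6) on chromosome X, 9272756 to 9313250.

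Gypc encodes glycophorin C, the carrier of the Gerbich antigens in humans and an anchor of the membrane to the skeleton. Replicate 1 gave 9.45 TPM and replicate 2 gave 10.9 TPM (10.2 ± 1.03, SD, n = 2), from 1625 and 2863 counts. Of the 11 junctional complex genes listed, 8 reached 1 TPM in both libraries. In TPM they were Epb41 (19.0 and 17.3), Mpp1 (18.1 and 14.4), Add1 (41.3 and 59.5), Add2 (15.4 and 21.4), Add3 (13.5 and 7.47), Tpm1 (28.9 and 19.05), Tpm3 (104 and 80.7) and Actb (366 and 394).

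**Figure D1:**
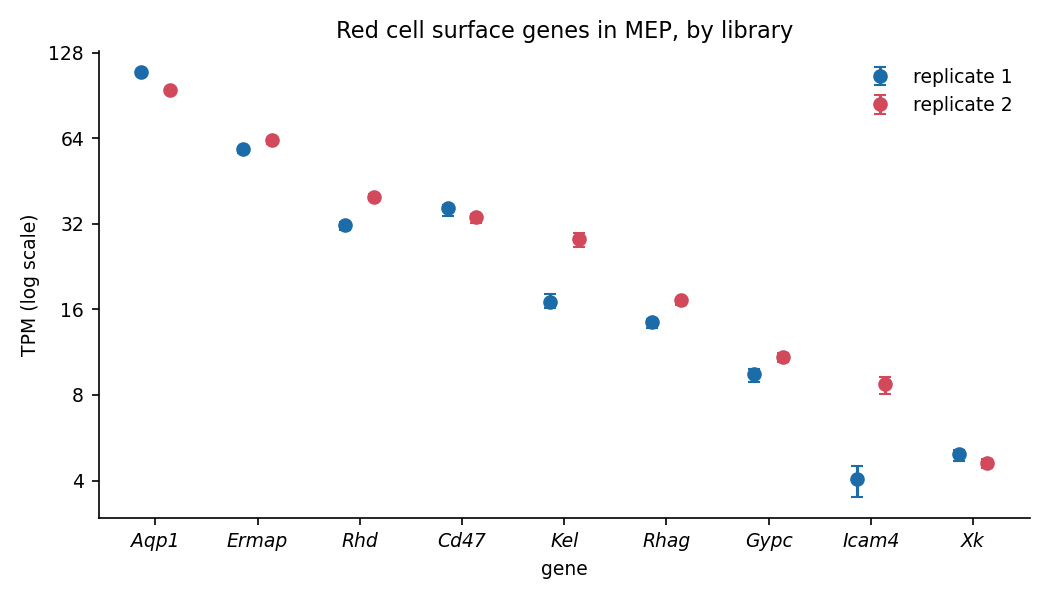
TPM of each of the 9 genes on a log axis, with replicate 1 in blue left of replicate 2 in red; bars are the authors' intervals, of unstated level. Aqp1 is highest at 109 and 94.2 and Xk lowest by mean at 4.97 and 4.63; Icam4 shows the widest gap for its level, 4.04 and 8.71.

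Ordered by mean TPM, the genes ran Aqp1, Ermap, Rhd, Cd47, Kel, Rhag, Gypc, Icam4 and Xk. Of the 8 neighbouring pairs in this order, 6 had the same order in both libraries. Rhd and Cd47 changed places, and so did Icam4 and Xk, with Icam4 at 0.81 of the level of Xk in replicate 1 and 1.88 times its level in replicate 2. Without its shorter transcripts Kel was not separated from Rhag, as Kel-201 alone had 15.0 and 17.1, against 14.45 and 17.2 for Rhag. The authors' intervals of the 2 libraries lay apart for 7 of the 9 genes (Xk and Cd47 were the others), against 76.9% of the 9033 genes.

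Transcript estimates were steady between the libraries for Rhd and for the main transcripts of Ermap, and differed for Gypc, Kel and Cd47. Rhag, Xk, Icam4 and Aqp1 have 1 annotated transcript each. Of the other 5 genes, 4 shared their leading transcript between the libraries, against 72.6% of 6363 protein-coding genes with several transcripts. Rhd-201 held 99.7% of the Rhd TPM in both. Ermap-206, a coding transcript of 13 exons, held 54.8% and 55.3% of the Ermap TPM. Ermap-201, annotated as a target of nonsense-mediated decay, held 21.5% and 20.6%. Shorter Ermap transcripts were less steady, with Ermap-207 at 4.99 and 3.37 TPM and Ermap-208 at 0 and 1.69.

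Gypc was the gene whose leading transcript differed. Gypc-202, of 2 exons, held 68.0% of the TPM in replicate 1 and 0 in replicate 2. Gypc-203, of 3 exons, held 32.0% and 100%. Their counts were 1086 and 0.38 for Gypc-202, and 539 and 2863 for Gypc-203. Both are annotated as coding and span nearly the same region of chromosome 18 (32528325 to 32559980 and 32528322 to 32560034). The level of the whole gene, 9.45 and 10.9 TPM, differed far less than the levels of these transcripts.

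In Kel and Cd47 the share depended on whether TPM or counts were read. Kel-201, of 19 exons, held 87.8% of the Kel TPM in replicate 1 and 60.4% in replicate 2. Of the Kel counts it held 98.6% and 94.9%. The non-coding Kel-202, 422 bases long, had 10.4 counts and 202 counts, which became a TPM of 0.57 and 7.53. Kel-203, a retained intron of 384 bases, was at 1.23 and 3.67. Over Kel-201 the libraries were at 15.0 and 17.1, a gap smaller than that of the whole gene. A gene of unclassified type, Gm37527, overlaps Kel on the same strand over 3547 bases and had 406 and 150 counts, so reads may be divided between them. In Cd47, the 867-base Cd47-202 held 59.5% and 70.7% of TPM but 15.8% and 23.4% of counts. The 5277-base Cd47-201 held 84.2% and 76.6% of counts.

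**Figure D2:**
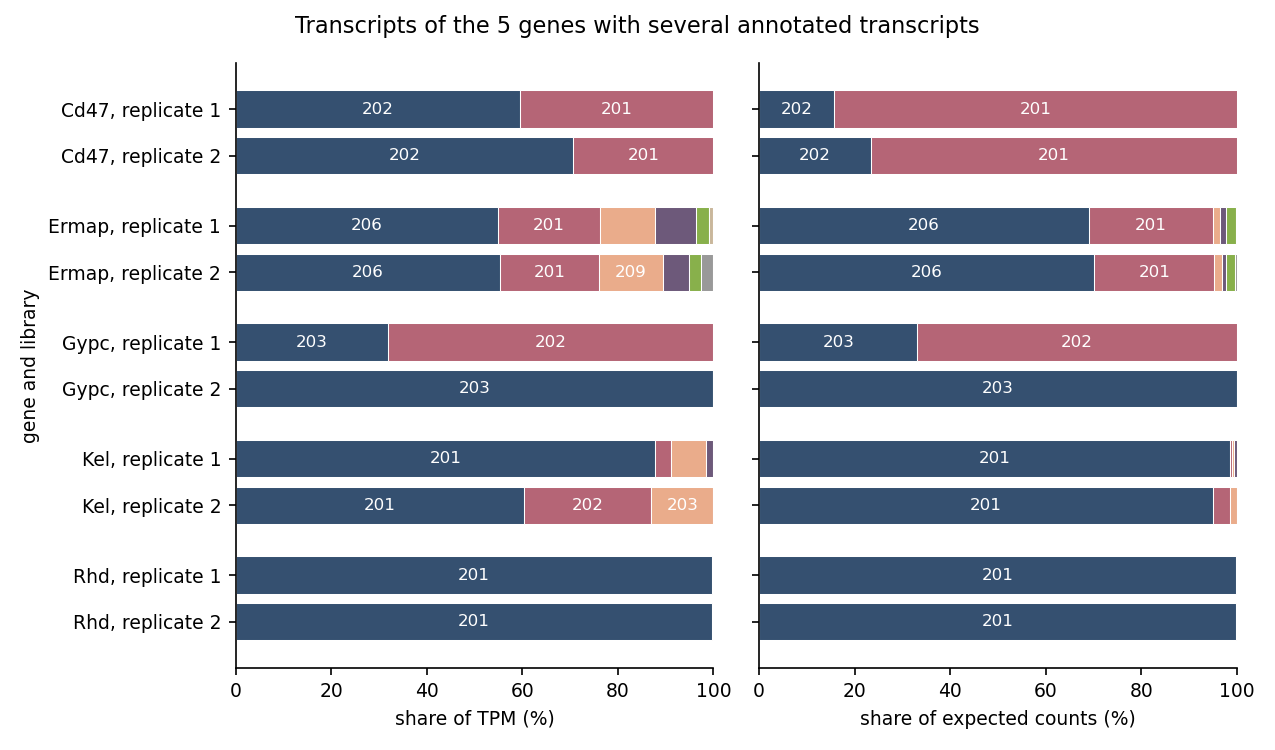
Share of each gene's TPM (left) and expected counts (right), in percent, taken by its annotated transcripts, with a bar per library; numbers in the bars are transcript suffixes. Gypc-202 fills 68.0% of the Gypc TPM in replicate 1 and 0 in replicate 2, and Cd47-202 takes 59.5% and 70.7% of TPM but 15.8% and 23.4% of counts.

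Relative to other protein-coding genes, the 9 genes were lower in replicate 1 than in replicate 2. The difference is the log2 of replicate 1 over replicate 2, on TPM + 1, minus the median of the 9033 genes, which was 0.27. All 9 differences were below 0, against 50.0% of genes by construction, with a median of -0.46. Without this centring, and with no filter on low values, Xk, Aqp1 and Cd47 were above 0, and with counts scaled by TMM (a normalization of edgeR) or by DESeq2 size factors Cd47 was. Icam4 had the largest difference, -1.22, and was the 1 gene of the 9 past 2-fold. Without centring or without the filter it was at -0.95, short of 2-fold. Of all 9033 genes, 6.31% were past it, 3.41% lower and 2.9% higher in replicate 1. Kel followed at -0.97, which was -0.59 with TMM-scaled counts and -0.43 over coding transcripts. Rhd was at -0.59, Rhag at -0.51, Gypc at -0.46 and Ermap at -0.37. Xk was at -0.19, Cd47 at -0.17 and Aqp1 at -0.060. Each side is 1 library, so these are differences of size with no test. The Icam4 locus is overlapped over its whole length by the antisense gene Gm47079, which was not analysed here. The sources used here do not say whether reads were counted by strand.

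**Figure D3:**
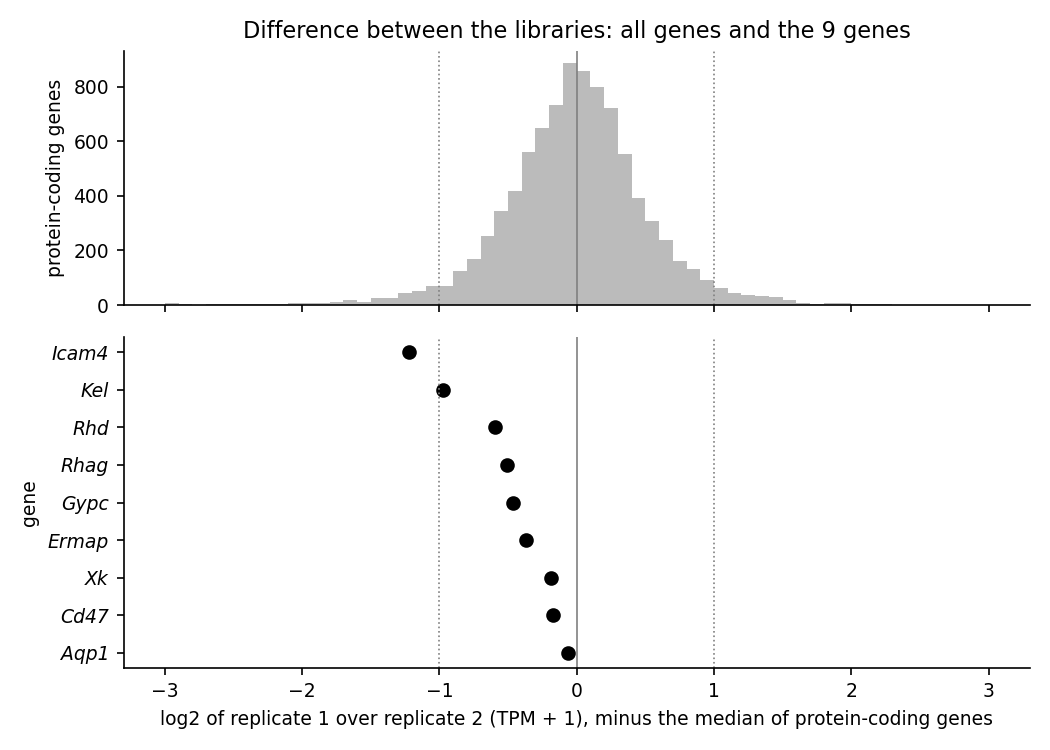
Top, number of the 9033 protein-coding genes by their centred log2 difference between replicate 1 and replicate 2, with values beyond 3 drawn at the ends; bottom, the 9 genes on the same axis. Dotted lines mark 2-fold; all 9 points lie left of 0, from -1.22 for Icam4 to -0.060 for Aqp1.

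Among the 8 genes with a promoter window, those with a GATA match had the larger differences, which was not so over all genes. Gypc, which had no window to search, was at -0.46, inside the range of the genes with a match. The split therefore holds only for the 8 genes searched, and a Gypc window without a match would break it. The 5 with a match (Icam4, Kel, Rhd, Rhag and Ermap) lay between -1.22 and -0.37, and the 3 without one (Xk, Cd47 and Aqp1) between -0.19 and -0.060. The Aqp1 window ends before the GENCODE start of Aqp1, so the bases next to that start were not searched. With TMM-scaled counts, which rescale the same 2 libraries and are no second observation, the ranges were -1.32 to -0.43 and -0.24 to 0.085. The gap between -0.37 and -0.19 is smaller than the robust SD of the differences over all genes, 0.43. The letters were searched after the differences were known, over 8 genes, and no test was made. Of the 9033 genes, 880 had a match in a window of theirs and 6395 had windows without one. Their median differences were 0.026 with a match and -0.0027 without, and 48.1% and 50.3% of them were lower in replicate 1. Their ranges overlapped, at -3.26 to 2.09 with a match and -3.60 to 2.71 without. Gata1, which encodes the erythroid GATA factor, was itself at 35.8 TPM in replicate 1 and 31.3 TPM in replicate 2. Its centred difference was -0.083, and it was -0.15 with TMM-scaled counts. All 9 listed erythroid regulators and receptors, Gata1 included, reached 1 TPM in both libraries, with Lmo2 (105 and 84.4) and Ldb1 (79.3 and 58.0) highest. By the centred difference 6 of these regulators and receptors were lower in replicate 1 and 3 higher, with a median of -0.15. Only Zfpm1 was past 2-fold, at 11.4 TPM in replicate 1 and 21.7 TPM in replicate 2. Its centred difference was -1.15, and it was -1.43 with TMM-scaled counts.

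**Figure D4:**
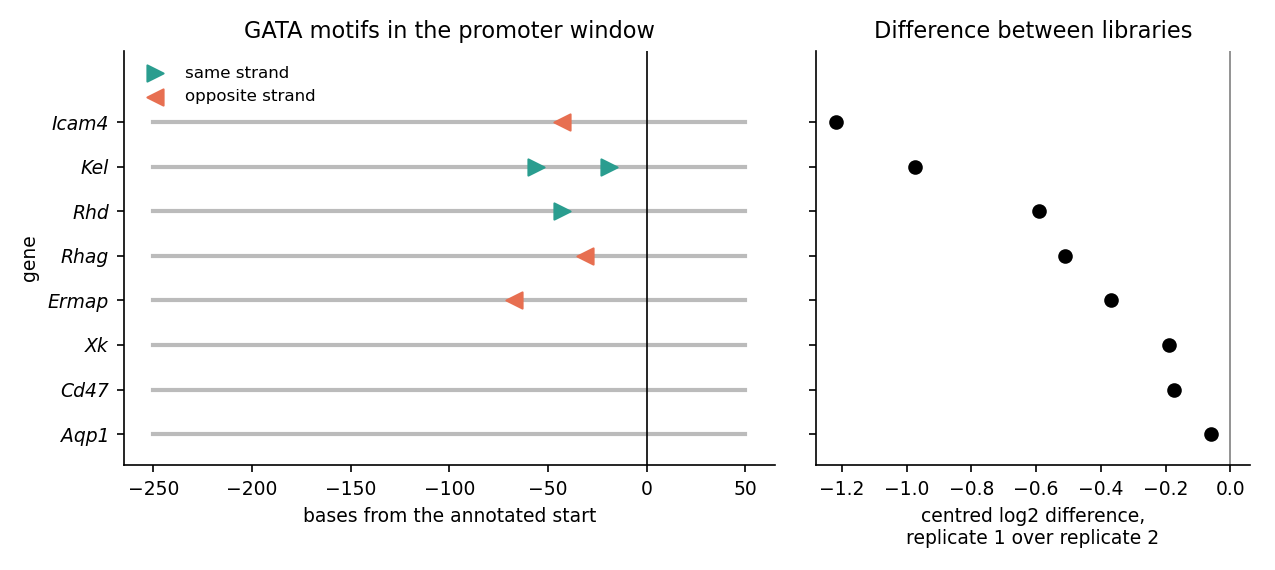
Left, position of the 6 letters in the promoter window of 8 genes, in bases from the RefSeq start, with arrows for the strand. Right, the centred log2 difference of replicate 1 over replicate 2 for the same genes. Gypc, at -0.46, had no window and is not shown. The 5 genes with a match lie at -0.37 or below, and Xk, Cd47 and Aqp1, with none, at -0.19 or above; over all genes with a window the medians are 0.026 with a match and -0.0027 without.

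Other lists of genes also differed between the libraries. Of 9 late erythroid genes that averaged 1 TPM or more, 8 were lower in replicate 1, with a median difference of -0.51 and 4 past 2-fold, all adult globin genes, whose copies can share reads. Listed genes that averaged less than 1 TPM were also past 2-fold lower in replicate 1. These were Alas2 (-1.17, from 9 and 239 counts) and Slc4a1, described below (-1.48, from 27 and 852 counts). The summed TPM of the 11 listed was 73.7 in replicate 1 and 162 in replicate 2, led by Hba-a2 (32.4 and 73.9) and Fech (12.7 and 15.0). The 12 megakaryocyte genes summed to 91.1 and 36.6, led by Pf4 (23.5 and 8.71) and F2r (22.8 and 9.09). Of the 7 that averaged 1 TPM or more, 5 were higher in replicate 1 by the centred difference, 3 of them past 2-fold. The other 2 were lower, Gp9 (0.43 and 1.65) past 2-fold and Vwf (1.44 and 2.01) short of it. The 9 stem and multipotent genes summed to 103 and 48.0, led by Angpt1 (43.9 and 11.97) and Mllt3 (22.2 and 26.8).

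Lymphoid transcripts were present, and their summed level was higher in replicate 2. The 12 listed genes summed to 9.19 and 22.8 TPM, led by Nkg7 (7.01 and 5.02) and by Gzma, with 0 counts in replicate 1 and 792 in replicate 2. Klrb1c had 32 and 707 counts, Cd3g 12 and 89, and Cd79a 0 and 157, while Cd3e, Cd4, Cd8a and Ms4a1 were at 0 counts in both. The 12 granulocyte and monocyte genes summed to 77.7 and 143, led by S100a8 (30.7 and 68.2) and S100a9 (15.9 and 30.7). Within that list Mpo (8.53 and 1.64), Prtn3 (1.57 and 0.12) and Elane (0.39 and 0.050) were higher in replicate 1. The 8 macrophage genes summed to 2.56 and 1.47, led by Cd68 (0.90 and 1.40) and C1qc (0.91 and 0). Mrc1 had 68 and 0 counts, and Adgre1, C1qa and C1qb were at 0 in both. Endothelium also expresses Aqp1, and the 10 endothelial and stromal genes summed to 10.6 and 5.21, led by Pecam1 (3.88 and 1.90) and Plvap (1.96 and 1.98). Tek had 2.53 and 0.44 and Pdgfrb 1.71 and 0.45, with Cdh5 and Col1a1 at 0 in both. The part of these in the differences of the 9 genes was not tested. In bulk RNA, fewer cells of a type and less RNA per cell cannot be told apart. The labelled cell type was checked on its listed sort markers and on Klf1 (43.0 and 49.0) and Epor (8.38 and 9.39). Kit, present on MEP, was at 43.0 and 27.9. Of the 5 markers that are low or absent on sorted MEP, Ly6a was at 0 counts in both libraries and Fcgr3 at 0.60 and 0.42. Cd34 reached 18.3 and 1.44, so in replicate 1 it was not low, above the median of 8.04 of the 9033 genes. Fcgr2b was at 1.03 and 0. Il7r was at 0.21 and 1.12, from 56 and 450 counts.

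A further 28 genes were listed because their human counterparts, or for Cr1l a human relative, carry blood group antigens or make them. Their levels ranged from near that of Aqp1 to 0 counts. In both libraries 18 reached 1 TPM. The list median was 4.265 TPM in replicate 1 and 2.865 TPM in replicate 2, against 17.0 and 28.3 for the 9, both set by Kel. Of the 28 genes, 10 averaged 10 TPM or more. Bsg, which encodes basigin, was highest at 93.6 and 95.4, near Aqp1. Abcg2, a urate and porphyrin exporter, had 48.55 and 26.9, Cr1l, a regulator of complement in mice, 41.5 and 25.8, and Cd44, the hyaluronan receptor, 33.05 and 30.9. The nucleoside transporter gene Slc29a1 had 23.5 and 36.5, Emp3 25.3 and 21.95, and the urea transporter gene Slc14a1 21.3 and 18.7. Cd55, a complement regulator, had 14.6 and 8.58, and the porphyrin transporter gene Abcb6 5.93 and 16.3. Smim1 had 15.5 and 7.38 in TPM but 754 and 1268 counts, so that its difference was 0.70 in centred log2 TPM and -0.52 with TMM-scaled counts.

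Most listed genes of enzymes that build sugar antigens were without counts. Abo, Fut1, A4galt and Gbgt1, which encode glycosyltransferases, had 0 counts in both libraries, as had Ackr1, the gene of the Duffy antigen carrier, and Sema7a. The floor taken for a count of 0 was 3 counts. Over the 37 genes of all lists without counts in both libraries, this is a TPM of 0.0068 to 0.058 in replicate 1 and 0.0046 to 0.040 in replicate 2. For the 6 genes named here it ran from 0.011 (Sema7a) to 0.054 (Ackr1) in replicate 1, and from 0.0073 to 0.037 in replicate 2. Floors cover counting error only. Of the other such genes in the list, Gcnt2 was at 4.77 and 1.45, and B3galnt1 at 0 and 0.21. The 18 genes of this list that averaged 1 TPM or more had a median centred difference of -0.016, with 9 lower in replicate 1 and 9 higher. The genes described here had -0.46, with 9 of 9 lower. Both splits depend on the scale. With TMM-scaled counts Piezo1 moved from 0.0010 to -0.83 and Smim1 from 0.70 to -0.52, the genes of the 18 that changed sign. On that scale 8 of the 9 genes described here were lower, and 6 of the 9 were lower in deposited TPM without centring.

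Slc4a1, which encodes band 3, the Diego antigen carrier and centre of the ankyrin complex, was at 27 counts in replicate 1 and 852 in replicate 2, a TPM of 0.07 and 1.47. It was named after its values were seen. Its level was below that of each of the 9 genes in both libraries. Other genes of that complex were higher, with Ank1 at 9.14 and 13.3, Sptb at 6.74 and 9.74, Epb42 at 3.47 and 4.27 and Car2 at 449 and 427. Of 5 listed genes of the complex, 4 averaged 1 TPM or more, and all 4 were lower in replicate 1 by the centred difference, with a median of -0.63 and none past 2-fold.

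**Figure D5:**
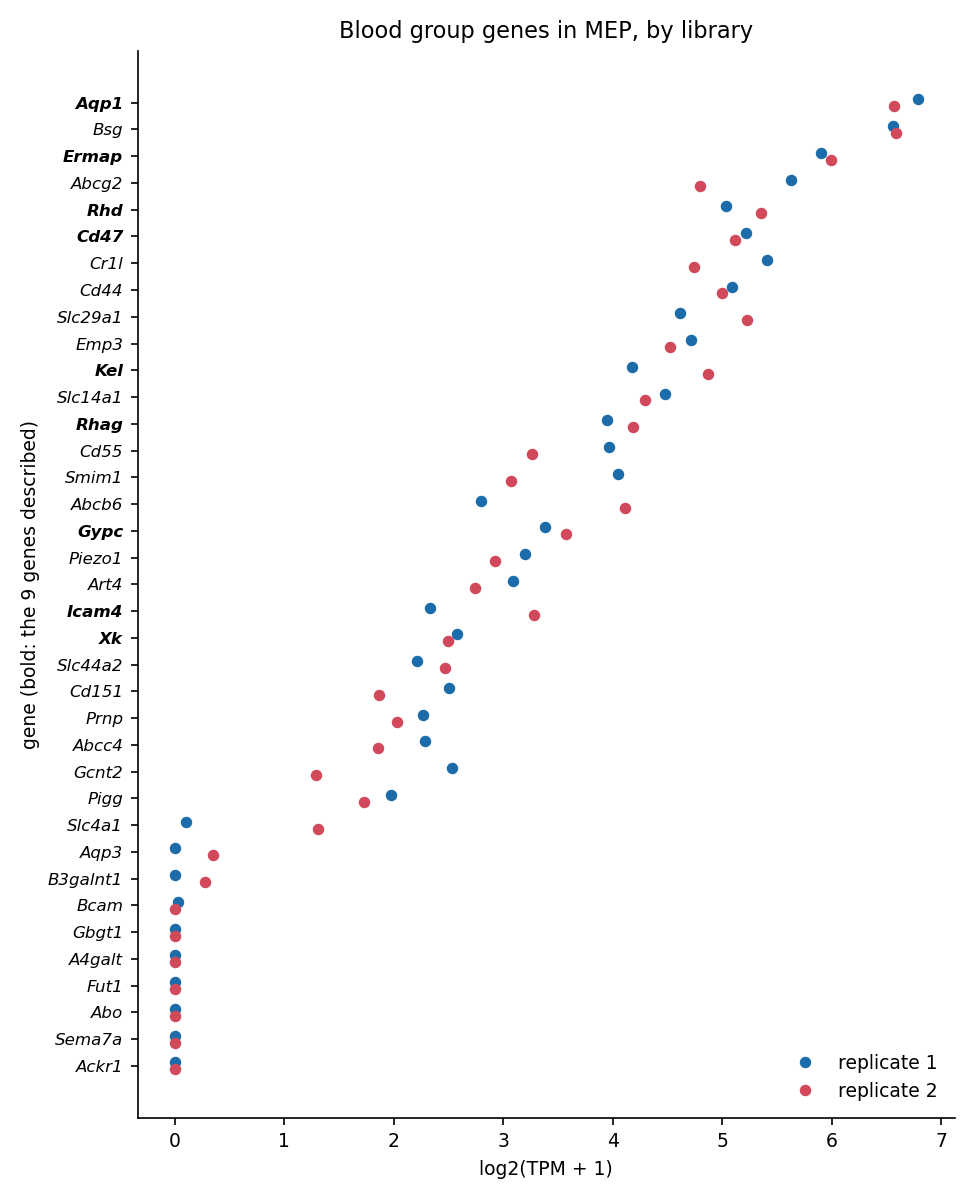
log2(TPM + 1) of the 9 genes (bold) and 28 other blood group genes, ordered by mean TPM, replicate 1 in blue and replicate 2 in red. Aqp1 and Bsg lead, Slc4a1 stands near the bottom at a TPM of 0.07 and 1.47, and 6 genes lie at 0 in both libraries.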

How the data were processed

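The data are gene and transcript tables of total RNA from 2 libraries of 1 group of MEP. Per the file headers, the authors deposited expected counts, TPM, FPKM, posterior mean TPM and interval bounds of the TPM, read here as signal, for each gene, and for transcripts also a percent of the gene's abundance. Each table holds 1 library. Genome build mm10 and GENCODE annotation M4 are per the text files deposited with the tables. No source used here names the program that made the estimates.

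Gene IDs were matched without version to GENCODE M21, of the same assembly, for 42462 of 43346 gene rows. No member is missing. Differences used log2(TPM + 1), centred on the 9033 nuclear protein-coding genes that averaged 1 TPM or more, and called past 2-fold. No test was made, as each side is 1 library. Nuclear protein-coding genes held 25.5% and 20.6% of TPM, so deposited TPM are scaled by that share. Alternatives were a pseudocount of 0.1, no centring, rescaled TPM, expected counts rounded to whole numbers and scaled by edgeR 4.0.16 TMM or DESeq2 1.42.0, posterior mean TPM, FPKM and other filters. Steps were tested on simulated data. Tools were Python 3.11.15, matplotlib 3.10.9, R 4.3.3, pandas 2.3.3 and numpy 2.4.6.

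The 9 genes and the lists were chosen with earlier results of these data known. Text names all 9 genes, other blood group genes that averaged 10 TPM or more or had no counts, and genes of complexes, partners and families that averaged 1 TPM or more and the 2 highest genes of each cell type list. Genes outside this rule are Slc4a1, Sirpa, Edn3, Rhbg, Rhcg, Icam1, Icam5, Gcnt2, B3galnt1, Gm37527 and Gm47079, named after their values were seen, as were the other cell type markers given singly. Some genes of the lists are not reported here.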

Additional observations from a re-analysis of the deposited data

Results flagged for a closer look

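Rows with numbers in place of gene IDs, outside the gene annotation and outside every comparison, held 26 expected counts in replicate 1, above the 3 counts that a count of 0 allows, and 1 in replicate 2. The counts lay in 2 of 26248 such rows.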

How the results depend on the processing

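The median difference of the 9 genes stayed below 0 under the 9 alternatives run, between -0.59 with DESeq2 size factors and -0.19 with deposited TPM without centring or with no filter on low values. The number of the 9 genes past 2-fold was 1, and 2 with a pseudocount of 0.1 or with rescaled TPM (Icam4 and Kel), but 0 without centring and with no filter on low values, where Icam4 was at -0.95. Over coding transcripts alone, an alternative chosen after seeing the data, Kel moved to -0.43 and the count stayed at 1. Of the 81 differences of single genes under these alternatives, 80 moved by less than the spread between libraries over all genes, a robust SD of 0.43. The median of the 9 mean levels, 22.7 TPM, was 59.1 in FPKM and 102 in rescaled TPM, which are other scales by construction. It was 17.0 to 28.3 with 1 library left out, and Kel was the median gene in each of these settings. All 9 genes passed the level of detection under every alternative run, and for 8 of 9 both libraries shared a leading transcript by TPM, posterior mean TPM or counts, although by counts that of Cd47 was Cd47-201 and not Cd47-202. No paired analysis was possible because there is 1 group, and a difference between libraries cannot be had without either of them. Depth limits Icam4 most, at 252 and 798 counts.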
